A study of Mus musculus with 2 samples.

Results

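The 10 genes described here encode the layered scaffold beneath excitatory synapses: Dlg1, Dlg2, Dlg3 and Dlg4, then Shank1, Shank2 and Shank3, then Homer1, Homer2 and Homer3. Their rows were selected by gene symbol, and all 10 were found among the 55536 annotated genes of the gene table, with 112 annotated transcripts between them. Total RNA had been sequenced from hippocampus of mice 10 days old. The animals were B6CASTF1/J, the cross between C57BL/6J and CAST/EiJ. There was 1 group with 2 biological replicates, each labelled male, each naming 3 animals and each started from 300 ng of RNA with spike-in RNA added. The labels do not spell out whether the 3 animals were pooled. With 1 group and no treatment or genotype to compare, the levels, the balance between paralogues, the transcripts used and the spread between the libraries are given.

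The Dlg proteins are membrane-associated guanylate kinases, built from PDZ domains, an SH3 domain and an inactive guanylate kinase domain. Their PDZ domains hold the tails of NMDA receptors, AMPA receptor auxiliary subunits and potassium channels at the membrane. Their guanylate kinase domain binds the Dlgap proteins, which in turn bind the PDZ domain of Shank. Shank proteins lie deeper in the postsynaptic density and bind Homer through a proline-rich stretch. Homer proteins carry an EVH1 domain, which grips Shank, group I metabotropic glutamate receptors and inositol trisphosphate receptors, and a coiled coil through which they form tetramers. The short form Homer1a, known as an immediate early gene product of neuronal activity, keeps the EVH1 domain and lacks the coiled coil, so it occupies the same partners without linking them.

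Replicate 1 held 32035705 expected counts and replicate 2 held 29747193. Sex-linked genes went against the label of 1 library: Xist stood at 25 counts in replicate 1, against 30841 for the library labelled male, replicate 2, and Ddx3y of chromosome Y had 2164 and 0. That library is called replicate 2 below. All 7 markers of hippocampal fields and dentate gyrus reached 1 TPM in both libraries, with summed levels of 475 TPM in replicate 1 and 500.2 TPM in replicate 2. The 6 myelin markers summed to 195.0 and 335 TPM, and 5 of the 5 tested were lower in replicate 1. The 5 choroid plexus markers summed to 12.7 and 354 TPM, of which Ttr alone had 8.02 and 340 TPM. Excitatory neuron markers summed to 1465 and 1604 TPM, and markers of immature neurons to 1412 and 1241 TPM.

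Among the Dlg genes, Dlg4 was the most abundant and Dlg1 the least. Levels are in TPM, a unit of relative abundance already divided by transcript length, so genes can be set side by side. Dlg4 (chr11:70016942-70047522, mm10, plus strand), which encodes PSD-95, the main scaffold of mature excitatory synapses, had 322 TPM in replicate 1 and 334 TPM in replicate 2. Dlg2 (chr7:90476672-92449247, plus strand), encoding PSD-93, had 120.0 and 119.4 TPM. Dlg3 (chrX:100767722-100818410, plus strand), encoding SAP102, a paralogue known for its part at immature synapses, had 58.1 and 64.3 TPM. As an X-linked gene it was read with the sex-linked difference above in view, and its part in the Dlg3 values was not tested. Dlg1 (chr16:31663443-31875129, plus strand), encoding SAP97, a paralogue also found in epithelia, had 22.4 and 24.0 TPM. The 4 genes kept the same order in both libraries, and the gap between each gene and the next was larger than the spread between the libraries.

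Dlg4 held 61.6% ± 0.03 of the summed Dlg TPM (SD, n = 2), Dlg2 22.5% ± 0.67, Dlg3 11.5% ± 0.53 and Dlg1 4.36% ± 0.10. The log2 ratio of Dlg4 over Dlg2 was 1.42 in replicate 1 and 1.48 in replicate 2, and that of Dlg4 over Dlg3 was 2.47 and 2.38. Among the 13055 nuclear protein-coding genes that reached 1 TPM in both libraries, Dlg4 ranked 135, Dlg2 692, Dlg3 1685 and Dlg1 4887. On expected counts, which grow with transcript length, the Dlg4 share was 47.9% and the Dlg2 share 33.9%, so the size of the lead depends on dividing by length while its order does not.

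Of the Shank genes, which encode the master scaffolds that join the Dlgap layer to Homer and the actin cytoskeleton, Shank1 led. Shank1 (chr7:44310253-44360572, plus strand) had 214 TPM in replicate 1 and 219 TPM in replicate 2. Shank3 (chr15:89499623-89560261, plus strand), the gene lost or mutated in Phelan-McDermid syndrome in humans, had 101.0 and 102.7 TPM. Shank2 (chr7:144001928-144424494, plus strand) had 51.8 and 55.0 TPM. Their shares of the family were 58.2% ± 0.10 for Shank1, 27.4% ± 0.22 for Shank3 and 14.4% ± 0.32 for Shank2 (SD, n = 2). Shank3 stood at a log2 ratio to Shank1 of -1.08 in replicate 1 and -1.09 in replicate 2, and Shank2 to Shank1 of -2.04 and -1.99. The order was the same in both libraries, and the ranks among protein-coding genes were 282, 858 and 2004 for Shank1, Shank3 and Shank2.

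The Homer genes were the lowest of the families, with a sum of 125 TPM in replicate 1 and 129 TPM in replicate 2, against 522 and 542 TPM for the Dlg genes and 366 and 377 TPM for the Shank genes. Homer1 (chr13:93299635-93405129, plus strand), the only member of its family with a known activity-induced short form, had 57.5 and 63.8 TPM. Homer2 (chr7:81600481-81707527, minus strand) had 46.1 and 43.6 TPM, and Homer3 (chr8:70282827-70294361, plus strand) had 21.1 and 21.5 TPM. Homer1 held 47.8% ± 2.39, Homer2 35.4% ± 2.25 and Homer3 16.8% ± 0.13 of the family (SD, n = 2). The lead of Homer1 over Homer2 was the smallest of the 6 ratios computed between paralogues, with a log2 ratio of 0.32 in replicate 1 and 0.55 in replicate 2. It turned to -0.06 on expected counts not divided by length, a scale that favours long transcripts such as Homer2-202 with its 10982 bases. Homer1 over Homer3 was 1.45 and 1.57 on the same log2 TPM scale. Dlg3 and Homer1, which are neighbours in the order of levels of all 10 genes, had means of 61.2 ± 4.42 and 60.6 ± 4.45 TPM (SD, n = 2) and did not differ beyond their spread.

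**Figure D1:**
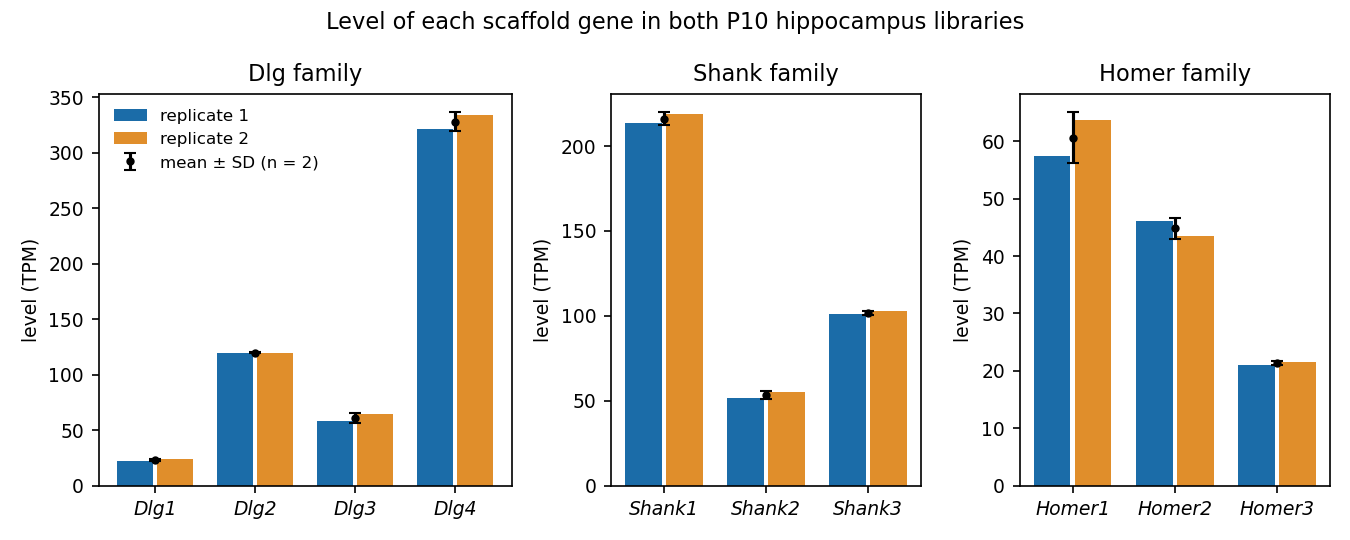
Level in TPM of each gene in replicate 1 (blue) and replicate 2 (orange), with the mean and SD of the 2 libraries in black, in a panel with its own axis for each family. Dlg4, Shank1 and Homer1 lead their families in both libraries, and the Homer axis ends far below the other two.

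Between the libraries the scaffold genes differed little, and where they differed they were lower in replicate 1. Each gene was compared by a two-sided exact binomial test of its counts against the ratio of normalised library sizes, adjusted by Benjamini-Hochberg over all 12879 genes averaging 100 counts or more, a test that compares the reads of the 2 libraries and no conditions. It called 7 of the 10 genes at an adjusted p under 0.05, where it called 11.8% of all genes tested. All 7 were lower in replicate 1, a direction in which 6.28% of all genes tested were called, beside 5.5% in the other direction, and 0 of the 10 differed 2-fold, as 0.303% of all genes did. Among the 5675 genes averaging 1000 counts or more, where depth makes smaller differences callable, the shares were 17.5% in either direction, 9.53% lower and 7.98% higher in replicate 1. The median log2 ratio of replicate 1 over replicate 2 was -0.11 over the 10 genes and -0.00 over all genes tested. The libraries also differed in the sex-linked genes above, so a part of sex cannot be told apart from other differences between the replicates. Fewer cells of a type and less RNA per cell cannot be told apart in such bulk libraries. Markers of excitatory neurons had a median log2 ratio of -0.11, with 2 of 4 called, both lower in replicate 1, and Neurod6 at -0.01. Other lists also had medians below 0. These were -0.12 for hippocampal fields and dentate (4 of 7 called lower), -0.17 for microglia (2 of 3 lower) and -0.14 for endothelium (1 of 2 lower). Astrocyte markers had -0.06 (2 of 4 lower, 1 higher), choroid plexus markers -1.16 and myelin markers -0.79. Medians lay above 0 for immature neurons (0.17, 3 of 4 called higher), oligodendrocyte precursors (0.16, 2 of 2 higher) and GABAergic neurons (0.04, 0 called). The part of any of these lists in the difference of the scaffold genes was not tested.

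Dlg1 had 1628 counts in replicate 1 and 1733 in replicate 2, a log2 ratio of -0.20 after scaling with an exact 95% counting interval of -0.30 to -0.10 (adjusted p from the exact binomial test = 0.000923). That was the ratio furthest from 0 among the 10 genes. Homer1 had 4178 and 4273 counts and a log2 ratio of -0.15 (adjusted p from the exact test = 0.000102). Shank3 followed with 10419 and 10475 counts and a log2 ratio of -0.12, Dlg3 with 5895 and 5881 and -0.11, and Shank2 with 8368 and 8335 and -0.11. The deepest genes were called on very small ratios: Shank1 had 33897 and 32839 counts and a log2 ratio of -0.07, and Dlg4 had 20431 and 19473 and -0.04 (adjusted p from the exact test = 0.0267). With libraries scaled by total counts Dlg4 was no longer called, at an adjusted p of 0.0695 from the exact test and a log2 ratio of -0.04.

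The remaining 3 genes were not called. Dlg2 had 14687 and 13597 counts and a log2 ratio of -0.00 with an interval of -0.04 to 0.03. Homer2 had 4550 and 4289 counts, a log2 ratio of -0.03 and an interval of -0.09 to 0.03, while its TPM, which is also divided by the lengths of its transcripts, was the higher one in replicate 1. Homer3 had the fewest reads of the set, 768 and 763, and at that depth its interval of -0.25 to 0.04 around a log2 ratio of -0.10 took in both 0 and the ratio of Dlg1.

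**Figure D2:**
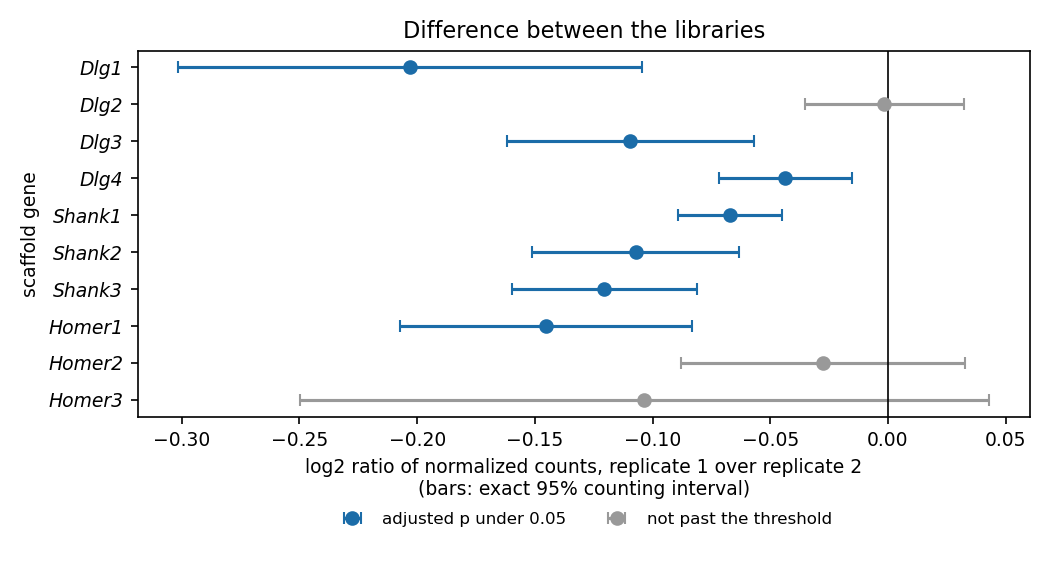
Log2 ratio of normalised counts, replicate 1 over replicate 2, for each scaffold gene, with exact 95% counting intervals and blue for an adjusted p under 0.05. All 10 points lie at or below 0, from -0.20 for Dlg1 to -0.00 for Dlg2, and no interval comes near a 2-fold difference.

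Homer1 was read through several alternative last exons, and its short transcripts made up 43.4% ± 0.63 of its TPM (SD, n = 2), with 42.9% in replicate 1 and 43.8% in replicate 2. Short here means a complete annotated coding sequence under 2/3 of the longest one of that gene. The coding sequences of the 3 short transcripts printed here leave that of the long transcript Homer1-203 at 2 points, and the sequences around those points, from the GENCODE M21 transcripts (mm10), are shown because they are what tells the forms apart. Lower case marks the last bases shared with Homer1-203 and capitals mark the bases after the point of departure, up to and including the stop codon in the short forms.
Homer1-204: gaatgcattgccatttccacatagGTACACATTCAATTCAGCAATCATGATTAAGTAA
Homer1-206: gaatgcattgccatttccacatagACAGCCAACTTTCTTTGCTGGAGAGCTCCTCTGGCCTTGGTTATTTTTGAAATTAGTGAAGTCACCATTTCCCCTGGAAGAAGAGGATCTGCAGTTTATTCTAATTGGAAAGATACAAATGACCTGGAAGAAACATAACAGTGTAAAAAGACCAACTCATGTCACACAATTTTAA
Homer1-207: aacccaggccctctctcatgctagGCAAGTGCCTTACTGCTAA
Homer1-203: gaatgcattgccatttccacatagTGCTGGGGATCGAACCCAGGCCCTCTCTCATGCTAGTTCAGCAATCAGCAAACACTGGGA
Homer1-204 and Homer1-206 share their first 527 coding bases, 175 whole codons, with Homer1-203. Homer1-204 then adds 34 bases and ends at 186 codons, the length of mouse Homer1a, and Homer1-206 adds 175 bases and ends at 233 codons. Homer1-207 runs on through a further exon of 36 bases, 12 codons, that it shares with Homer1-203, and stops 19 bases later at 193 codons. Homer1-203 goes on to 366 codons.

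The Homer1a kind of transcript, Homer1-204, had 6.39 TPM in replicate 1 and 7.23 TPM in replicate 2, which is 11.2% ± 0.16 of Homer1 (SD, n = 2). Its last exon (chr13:93355940-93360462, 4523 bases) holds most of its 5713 bases, so it took a larger part of the reads than of the molecules: 778 of the expected counts in replicate 1, 18.6% with an exact 95% interval of 17.5% to 19.8%, and 817 in replicate 2, 19.1% with an interval of 18.0% to 20.3%. The middle ending, used by Homer1-206 and Homer1-205, had 3.63 and 3.55 TPM and held 5.94% ± 0.53. Homer1-205, the rarer of that pair, had 0.43 and 0 TPM. The libraries were made from total RNA, so reads of unspliced precursor RNA could fall on last exons that lie within introns of the long form, and their part in these levels was not tested.

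Homer1-207, with its last exon at chr13:93386345-93386744, was the most abundant short transcript, at 14.6 TPM in replicate 1 and 17.1 TPM in replicate 2, or 26.2% ± 1.00 of Homer1 (SD, n = 2). That last exon holds 400 of its 2468 bases, so its level also rests on reads of its other exons, and their part was not tested. The shared last exon that starts at base 93402041 of chromosome 13 held 56.6% ± 0.50. Within it Homer1-203 had 19.0 and 22.6 TPM and Homer1-202 had 13.7 and 13.2 TPM. The 36-base exon, found in Homer1-203, Homer1-207 and Homer1-211, was carried by 58.7% and 62.3% of the coding TPM by alignment. By TPM made from the FASTQ reads the share was 48.9% in replicate 1 and 54.2% in replicate 2. That exon sits in long and short transcripts alike, and Homer1-202 is a long transcript without it.

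**Figure D3:**
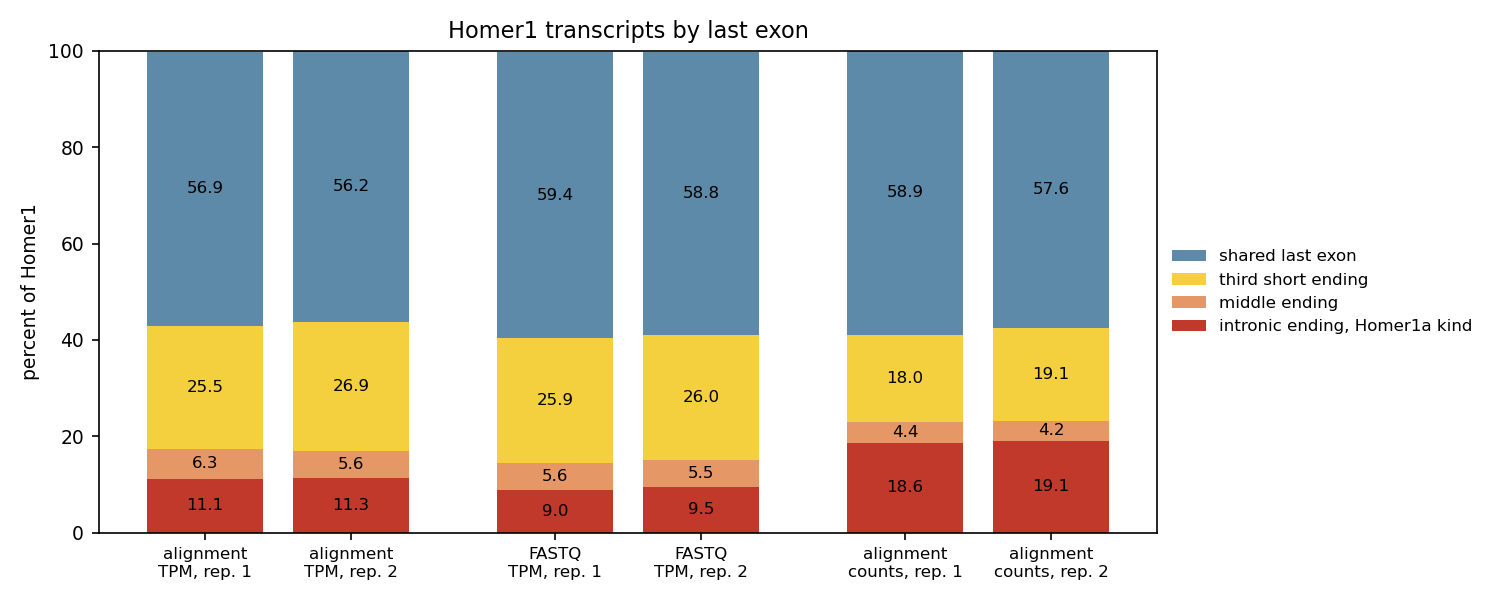
Percent of Homer1 in transcripts of each last exon, by library, for alignment-based TPM (left pair), FASTQ-based TPM (middle pair) and expected counts (right pair). The shared last exon holds 56.2% to 59.4% in every bar, and the Homer1a kind holds 9.0% to 11.3% of TPM and 18.6% to 19.1% of expected counts.

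The deposited quantifications differed on the share of short Homer1 transcripts. Short coding transcripts held 43.4% ± 0.63 of Homer1 by alignment, against 55.2% ± 2.09 by the second route, whose values were made from the FASTQ reads (SD, n = 2 libraries each). Most of that gap came from Homer1-210, a short transcript of 779 bases that ends in the shared last exon, listed at 0 TPM in both libraries by alignment and at 13.2 and 13.9 TPM by the FASTQ route. Homer1-209, of 772 bases, was listed at 0 in both libraries by alignment and at 3.65 and 0 TPM by the FASTQ route. Grouped by last exon the routes came closer, with 11.2% by alignment and 9.24% by FASTQ for the Homer1a kind, 5.94% and 5.54% for the middle ending, 26.2% and 25.9% for Homer1-207, and 56.6% and 59.1% for the shared last exon. This grouping was chosen after the transcript values had been seen.

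Homer1 also has more than 1 annotated promoter. Transcripts from the upstream coding start, at base 93305298 of chromosome 13, held 77.7% ± 2.21 of complete coding TPM (SD, n = 2), and Homer1-202, whose coding start lies at 93308308, held 22.3% ± 2.21. Every short form belonged to the upstream coding start. These shares follow coding starts and were not assigned to single promoters. The annotated gene begins at base 93299635, before both promoters printed here. RefSeq promoters (GRCm38.p6, 250 bases before and 50 after the start, plus strand) are printed because the first one begins at the annotated start of Homer1-207 and the second at that of Homer1-202. Capitals mark TGACG or its reverse complement CGTCA, the core of the cyclic AMP response element, searched on both strands.
Homer1 promoter at chr13:93303507-93303806: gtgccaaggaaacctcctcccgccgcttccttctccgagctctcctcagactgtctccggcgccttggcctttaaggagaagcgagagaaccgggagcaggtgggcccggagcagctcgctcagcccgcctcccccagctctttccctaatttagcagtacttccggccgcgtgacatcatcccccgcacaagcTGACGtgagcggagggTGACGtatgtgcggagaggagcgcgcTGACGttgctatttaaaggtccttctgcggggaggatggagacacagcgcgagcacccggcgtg
Homer1 promoter at chr13:93307784-93308083: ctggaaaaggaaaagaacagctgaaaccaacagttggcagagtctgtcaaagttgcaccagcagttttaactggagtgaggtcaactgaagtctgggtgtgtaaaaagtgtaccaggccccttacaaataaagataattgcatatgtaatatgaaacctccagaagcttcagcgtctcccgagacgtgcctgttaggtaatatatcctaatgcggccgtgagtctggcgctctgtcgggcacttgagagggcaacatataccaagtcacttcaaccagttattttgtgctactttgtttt
The upstream promoter holds 3 of these motifs, 26 CG dinucleotides and 63.0% G and C. The downstream one holds 0 of the motifs, 7 CG dinucleotides and 44.7% G and C. Of all 32851 promoters of the same length, 20.8% hold the motif at least once and 1.03% hold it 3 or more times, and the median number of CG dinucleotides is 7. Neither promoter holds the full palindrome TGACGTCA, which 1.79% of promoters hold, nor TATAAA on either strand, which 13.6% hold. These matches describe the letters only. Of the 10 genes, 8 had promoter rows, 18 in all.

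Coding starts divided the Dlg genes further. PSD-95 and PSD-93 are known to be fixed to the membrane by palmitate on cysteines near their amino-terminal end, so the first coding bases of their leading transcripts, of Dlg4-201 and of the longest annotated Dlg4 form, Dlg4-204, are shown, with the start codon in capitals (GENCODE M21 transcripts, mm10).
Dlg4-203: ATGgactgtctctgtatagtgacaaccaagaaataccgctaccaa
Dlg4-201: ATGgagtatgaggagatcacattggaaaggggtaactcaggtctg
Dlg4-204: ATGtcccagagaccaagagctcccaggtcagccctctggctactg
Dlg2-204: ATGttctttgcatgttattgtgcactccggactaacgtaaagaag
Dlg4-203 encodes 724 codons and holds 2 cysteine codons among its first 15. Dlg4-201 encodes 664 codons, its coding sequence is wholly contained in that of Dlg4-203, and its first 15 codons hold 0 cysteine codons, so it corresponds to Dlg4-203 without its first 60 codons. Dlg4-204 encodes 767 codons and has 0 as well. Dlg2-204 has 2, the leading Dlg3 transcript Dlg3-202 has 4, and the leading Dlg1 transcripts Dlg1-203 and Dlg1-204 have 0. These counts describe codons only and do not show which proteins carry palmitate.

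By alignment Dlg4 was read mainly from the start of Dlg4-203. That transcript had 201 TPM in replicate 1 and 220.3 TPM in replicate 2, 64.2% ± 2.55 of the gene (SD, n = 2). By FASTQ it also led, but held 31.5% ± 1.36. Its coding start, at base 70018920 of chromosome 11, held 85.5% and 90.9% of complete coding TPM by alignment, with Dlg4-215 adding 18.5 and 17.0 TPM. The later start, at 70030625, used by Dlg4-201, Dlg4-216 and Dlg4-218, held 14.5% and 9.09%. The earliest coding start, at 70017215, used by Dlg4-204, was at 0 TPM by alignment and about 0 by FASTQ in both libraries. Dlg4-204 is among 5 transcripts, not all with a complete coding sequence, that begin at bases 70016942 to 70017275. In sum they had 0.90 and 2.15 TPM by alignment and 9.32 and 17.7 TPM by FASTQ. Dlg4 also had the short coding transcripts Dlg4-219, at 11.4 and 13.1 TPM, and Dlg4-214, at 4.70 and 3.98 TPM, which together held 5.05% ± 0.08. Transcripts with an incomplete annotated coding sequence held 13.4% ± 0.62, led by Dlg4-222, a fragment of 389 bases, at 24.1 and 21.6 TPM. By FASTQ the short coding share of Dlg4 was 1.46% ± 0.34, with Dlg4-219 at 2.10 and 0.13 TPM, and the incomplete share was 29.7% ± 1.14 (SD, n = 2).

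The routes differed on the start of Dlg4, as they did on that of Shank3. By alignment the start of Dlg4-203 held 88.2% ± 3.83 of complete coding TPM and the later start 11.8% ± 3.83, against 53.6% ± 1.01 and 46.4% ± 1.01 by the FASTQ route (SD, n = 2 libraries each). Dlg4-201 had a mean of 24.8 TPM by alignment and 114 TPM by FASTQ, and Dlg4-218 had 2.51 and 73.1 TPM. Because the coding sequence of Dlg4-201 lies inside that of Dlg4-203, reads of the shared coding part do not tell them apart, and which route is nearer the truth was not tested.

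Dlg2 used 1 start above all: Dlg2-204, with a coding start at base 91091007 of chromosome 7, had 79.7 TPM in replicate 1 and 81.6 TPM in replicate 2, 67.4% ± 1.35 of the gene (SD, n = 2). With Dlg2-201, at 3.23 and 2.26 TPM, that start held 95.4% ± 0.93 of complete coding TPM, and Dlg2-217, which encodes the longest form of 957 codons from the far upstream start at 90504898, held 4.04% ± 1.01. The second most abundant Dlg2 transcript had no coding sequence: Dlg2-207, of 964 bases, had 22.5 and 17.0 TPM. Non-coding transcripts in sum held 27.0% ± 0.11 of Dlg2. A short coding transcript, Dlg2-202 of 481 codons, was listed at 0 by alignment and at 2.99 and 2.18 TPM by the FASTQ route.

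Dlg3 was carried by transcripts of 1 coding start that differ in coding length. Dlg3-202, of 849 codons, had 27.1 TPM in replicate 1 and 30.7 TPM in replicate 2. Dlg3-201, of 817 codons, had 26.9 and 20.9 TPM, and Dlg3-204, of 835 codons, had 0 and 6.88 TPM. Those 2 transcripts shifted in opposite directions between the libraries. Full-length coding transcripts in sum had 53.9 and 58.4 TPM, 91.9% ± 1.46 of the gene (SD, n = 2), and the short coding Dlg3-203 had 0.34 and 0.74 TPM. Dlg1 was split over 2 starts. The upstream one, at base 31664852 of chromosome 16, held 62.3% ± 2.18 of complete coding TPM and that of Dlg1-204, at 31754783, held 37.7% ± 2.18. Dlg1-204 was the leading single transcript at 5.86 and 6.46 TPM, followed by Dlg1-203 at 5.25 and 3.12 TPM and Dlg1-202 at 2.15 and 4.68 TPM. Transcripts marked for nonsense-mediated decay held 13.3% ± 2.02 of Dlg1, the highest share of that class among the 10 genes by alignment.

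The Shank genes differed in how they used their starts. Shank2 is known to be transcribed from several promoters, and its longest form carries the ankyrin repeats. The first coding bases of its 3 forms are shown because each form begins differently, with the start codon in capitals (GENCODE M21 transcripts, mm10).
Shank2-203: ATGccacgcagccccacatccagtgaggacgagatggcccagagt
Shank2-202: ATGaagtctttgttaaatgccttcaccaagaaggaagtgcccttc
Shank2-205: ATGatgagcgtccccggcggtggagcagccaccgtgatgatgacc
Shank2-203 encodes 1841 codons, Shank2-202 encodes 1472 and Shank2-205 encodes 1262. The last 3249 coding bases of Shank2-202 and of Shank2-205 are identical to those of Shank2-203, and Shank2-205 shares its last 3706 with Shank2-202.

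The longest Shank2 form was the rarest. Shank2-203 had 1.31 TPM in replicate 1 and 1.73 TPM in replicate 2, and its start held 2.96% ± 0.42 of complete coding TPM (SD, n = 2). Shank2-202 led with 29.3 and 33.0 TPM and 60.7% ± 1.94. The last start, shared by Shank2-205 at 17.2 and 15.8 TPM and Shank2-201 at 1.56 and 2.64 TPM, held 36.4% ± 2.36. The FASTQ route gave 2.67%, 59.7% and 37.6% for these starts, in the same order. Shank2 had almost no transcripts outside these forms, with 95.9% ± 1.14 of its TPM in full-length coding transcripts, the highest share among the 10 genes by alignment.

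Shank1 had a single coding start, at base 44312707 of chromosome 7. Shank1-203, of 2167 codons, had 119 TPM in replicate 1 and 122 TPM in replicate 2, 55.9% ± 0.06 of the gene (SD, n = 2), and Shank1-201 had 49.0 and 44.0 TPM. Grouped by annotated transcript start, Shank1-203 stands alone and the pair of Shank1-202 and Shank1-201, which begin downstream of it, held 28.4% ± 1.44. Shank1-202 had 9.45 and 20.4 TPM, and the retained-intron transcript Shank1-206 had 25.9 and 23.0 TPM. Shank3 was led by Shank3-203, of 1805 codons, at 32.8 and 37.8 TPM, and Shank3-201, of 1730 codons, at 28.5 and 29.6 TPM. The coding sequence of Shank3-201 is wholly contained in that of Shank3-203, and their starts held 40.9% ± 0.88 and 49.6% ± 2.57 of complete coding TPM by alignment, but 10.9% ± 0.17 and 84.7% ± 6.41 by FASTQ. The short coding Shank3-209, of 382 codons, had 7.30 and 6.05 TPM by alignment, and 8.12 TPM in replicate 1 and about 0 in replicate 2 by the FASTQ route. Shank3-205, a retained-intron transcript of 596 bases, had 17.1 and 13.0 TPM, and non-coding transcripts in sum held 22.4% ± 3.81 of Shank3.

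Homer2 has no annotated short coding transcript under the length rule, so none could be read. Short coding transcripts held 1.56% ± 1.14 of Homer3 by alignment and 13.4% ± 1.32 by FASTQ, against 43.4% and 55.2% of Homer1 (SD, n = 2). Homer2-201, of 343 codons, had 20.5 TPM in replicate 1 and 23.0 TPM in replicate 2, and Homer2-206, of 354 codons from the same start, had 7.22 and 3.53 TPM. Together their start held 64.1% ± 1.19 of complete coding TPM (SD, n = 2), and Homer2-202, which starts at another exon and encodes 290 codons, held 35.9% ± 1.19 at 15.0 and 15.5 TPM. That form still passed the length rule for a full-length coding transcript. Homer3 had 2 near-equal transcripts of 359 codons by alignment, Homer3-203 at 6.87 and 7.92 TPM and Homer3-201 at 6.23 and 6.61 TPM. By FASTQ Homer3-203 had 10.7 and 11.3 TPM and Homer3-201 was at about 0. Its short coding transcript Homer3-202, of 122 codons, had 0.16 and 0.51 TPM by alignment and 5.80 and 4.76 TPM by FASTQ. Non-coding transcripts held 35.7% of Homer3 in replicate 1 and 26.1% in replicate 2 by alignment, led by Homer3-207 at 4.37 and 2.43 TPM.

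**Figure D4:**
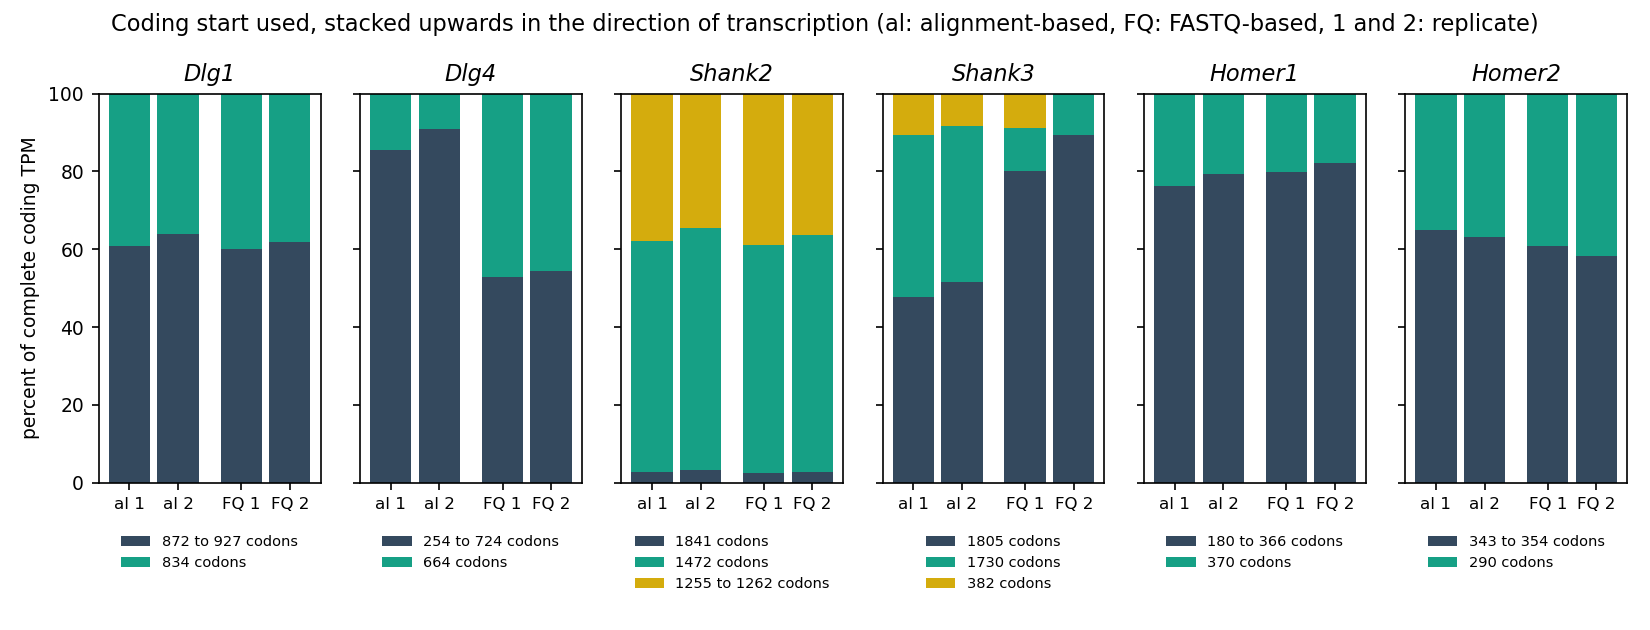
Percent of complete coding TPM from each coding start for 6 of the genes, stacked upwards in the direction of transcription without starts under 0.5%, by alignment (al) and FASTQ (FQ) in replicates 1 and 2, with coding lengths in codons below. Dlg1, Shank2, Homer1 and Homer2 give similar bars by both routes, while by alignment against FASTQ the start of Dlg4-203 holds 85.5% and 90.9% against 52.9% and 54.3%, and that of Shank3-203 holds 47.8% and 51.5% against 80.2% and 89.2%.

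Across the set, 87 of the 112 transcripts reached 0.1 TPM in both libraries by alignment, 80 by FASTQ and 71 by both. The leading transcript was the same by both routes for 8 of the 10 genes. The exceptions were Dlg1, led by Dlg1-204 by alignment and by the non-coding Dlg1-213 by FASTQ, and Homer1, led by Homer1-203 by alignment and by Homer1-207 by FASTQ. Summed per gene, the log2 ratio of alignment-based over FASTQ-based TPM lay between -1.17 for Dlg1 and -0.58 for Shank2, beside a median of -0.63 over 14079 protein-coding genes. The same ratio of counts lay between -0.16 for Dlg1 and -0.02 for Dlg4, beside a median of -0.09. Gene sums of reads thus differed less between the routes than gene sums of TPM did.

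Some short transcripts lay far apart between the routes. Dlg4-206, of 540 bases, had a mean of 1.58 TPM by alignment and 167 TPM by FASTQ, and Shank1-205, of 608 bases, had 6.03 and 71.1 TPM. In the other direction Dlg4-222, of 389 bases, had 22.9 TPM by alignment and was listed at 0 by FASTQ. For the 55 transcripts of at least 2000 bases the effective length, by which reads are divided, was 99 bases below the length by alignment and 352 and 356 bases below it by FASTQ in replicates 1 and 2. Other transcripts among the leading 3 of their gene by FASTQ alone included Dlg3-205, with a mean of 2.00 TPM by alignment and 19.1 TPM by FASTQ, Shank3-206 with 3.00 and 33.1 TPM, and Homer2-208 with 0.50 and 13.7 TPM, none of these 3 with a coding sequence. The coding transcript Dlg2-201 was another, at 3.23 and 2.26 TPM by alignment and a mean of 14.7 TPM by FASTQ, as was Shank3-207, of incomplete coding sequence, with means of 7.68 and 12.3 TPM. In Homer3, Homer3-206 of 356 codons was listed at 0 by alignment with a mean of 8.68 TPM by FASTQ, and the retained-intron Homer3-205 had 0.63 and 6.77 TPM. Dlg4-206 had an effective length of 441 bases by alignment and 197 by FASTQ in replicate 1. The reads given to it differed as well. It had 3.54 and 24.8 expected counts in replicates 1 and 2 by alignment, and 569 and 500 estimated counts by FASTQ.

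**Figure D5:**
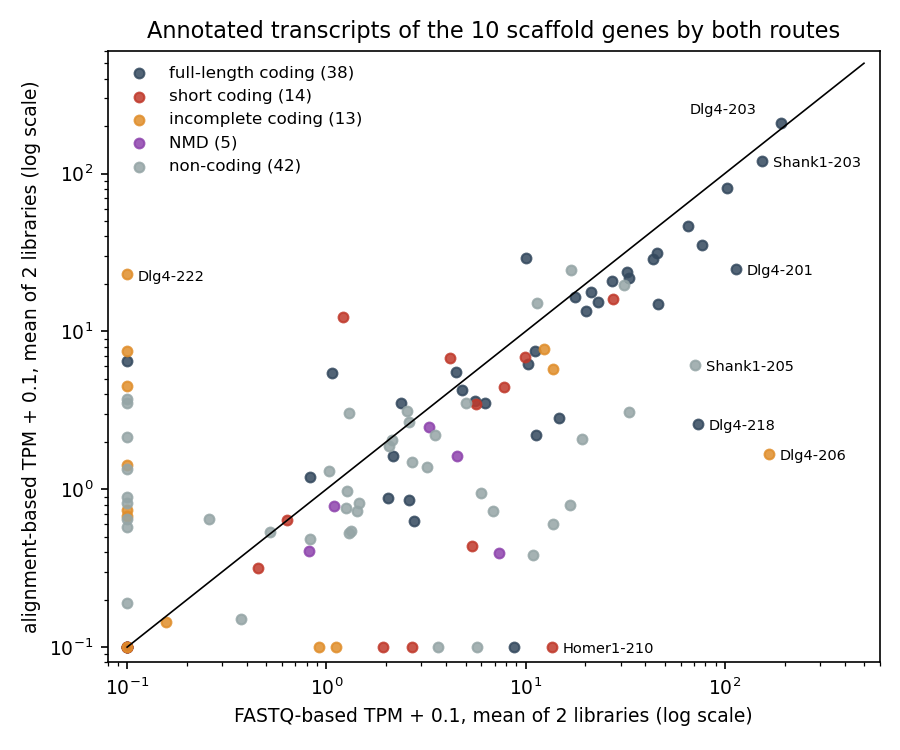
Mean TPM + 0.1 of each of the 112 annotated transcripts by alignment (vertical, log scale) against the FASTQ route (horizontal, log scale), coloured by coding class with the number of transcripts, and the line of equal values. Dlg4-203, at 210 against 191 TPM, and Shank1-203, at 121 against 154 TPM, lie near the line. Dlg4-206, at 1.58 against 167 TPM, and Dlg4-222, at 22.9 against 0 TPM, lie far from it. Equal TPM is not an equal share of the gene, as protein-coding genes had a median log2 ratio of -0.63. Dlg4-203 held 64.2% of Dlg4 by alignment and 31.5% by FASTQ.

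The 34 genes listed beside these scaffolds were present throughout. They were 17 postsynaptic partners, 4 Homer ligands, 8 other membrane-linked scaffolds, 4 palmitoylation enzymes of PSD-95, and Gphn as an inhibitory contrast. All 34 reached 1 TPM in both libraries and 0 differed 2-fold. In replicate 1, 3 were called higher and 9 lower, and the median log2 ratio was -0.04. The 3 higher calls lay outside the postsynaptic partners and Homer ligands, whose medians were -0.05 and -0.10. Of all genes tested 5.5% were called higher and 6.28% lower in replicate 1, 11.8% in all. Among genes averaging 1000 counts or more, a depth that most of the 34 reach, the shares were 7.98%, 9.53% and 17.5%. Of the 17 postsynaptic partners 5 were called, all 5 lower in replicate 1: Dlgap1 and Dlgap2, which link Dlg to Shank, Baiap2, an actin regulator that binds Shank and PSD-95, Sipa1l1, a GTPase-activating protein for Rap, and Kalrn, an exchange factor for Rac. The most abundant partner was Dynll1, a dynein light chain, at 355 TPM in replicate 1 and 371 TPM in replicate 2. Frmpd4, which binds PSD-95 and Homer, was the lowest at 12.7 and 13.7 TPM.

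Of the 4 Homer ligands, Grm5, the group I metabotropic glutamate receptor known for hippocampal pyramidal cells, was highest at 105 TPM in replicate 1 and 102 TPM in replicate 2. The ryanodine receptor gene Ryr2 followed at 50.4 and 53.3 TPM. Ryr2 and the inositol trisphosphate receptor gene Itpr1 were called lower in replicate 1, with log2 ratios of -0.08 and -0.28. Among 8 other membrane-linked scaffolds, Lin7c had 71.8 and 65.8 TPM, Lin7b 61.5 and 61.6 TPM and Lin7a 16.3 and 19.3 TPM, with Dlg5 and Cask called higher and Mpp2 and Lin7a lower in replicate 1. Of the 4 enzymes that add or remove palmitate on PSD-95, the depalmitoylase gene Abhd17a was highest at 80.2 and 78.3 TPM, the palmitoyl transferase gene Zdhhc2 had 40.2 and 38.4 TPM, and Abhd17b was lowest at 27.9 and 24.8 TPM and the only one called, higher in replicate 1. Gphn, the scaffold of inhibitory synapses, had 36.7 and 36.8 TPM and was not called.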

How the data were processed

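Per the labels, 2 biological replicates of hippocampus RNA formed 1 group. The authors deposited a gene table and a transcript table from alignments to mm10 with GENCODE M21, with expected counts (not normalised) and TPM values, and a second transcript table with estimated counts and TPM made from the FASTQ reads. Neither a tool nor a strand setting is named in the labels or headers used here, so antisense genes may share reads. The deposited intervals around TPM have no stated level and were not used as errors.

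Expected counts were rounded for tests. Library sizes were scaled by TMM (edgeR 4.0.16, R 4.3.3), leaving out 26248 rows named only by a number and 97 spike-in rows, together 0.358% and 0.359% of counts. Replicates 1 and 2 were compared by an exact binomial test (two-sided, Benjamini-Hochberg adjusted), log2 ratios with a prior count of 0.5, and calls at an adjusted p under 0.05. With 1 library a side no quasi-likelihood fit is possible, so p-values cover counting error between 2 libraries only. Reads without molecular identifiers are not independent molecules, and intervals (exact Clopper-Pearson, 95%) cover counting error only. On simulated counts for the 12879 genes, with counting noise only, the test called 0.071% of unchanged genes, 68% at 1.25-fold and 100% at 2-fold, 50 genes at each fold.

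Transcript classes came from GENCODE M21: complete coding sequence under 2/3 of the longest (short), incomplete, marked for nonsense-mediated decay, or none. Named were all members, the 2 highest and the lowest partner of each list, the 3 leading transcripts of each member, short coding transcripts at 0.1 TPM or more, and those furthest apart between routes. Other partners and transcripts were named after their values were seen. Some partner genes are not reported here, and list counts and medians include them. Members and lists were chosen with earlier results of these data known. DESeq2 1.42.0 size factors, other filters and the FASTQ-based tables were alternatives. Python 3.11.15, pandas 2.3.3, scipy 1.17.1 and matplotlib 3.10.9 were used.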

Additional observations from a re-analysis of the deposited data

How the results depend on the processing

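The 7 scaffold genes called between the libraries became 6 under scaling by total counts and 6 without chromosomes X and Y, where Dlg3 was not tested, and stayed at 7 under median-of-ratios size factors (DESeq2 1.42.0), counts of at least 10, no filter beyond 1 count, FASTQ-based counts and protein-coding genes only. The number of genes past 2-fold, 39, became 175 with a mean count of at least 10, 207 with no filter beyond 1 count and 22 over protein-coding genes only. The Dlg4 share of its family was 64.2% by FASTQ-based TPM and 47.9% on counts not divided by length. The Shank1 share was 59.6% and 64.0% on the same scales, and the Homer1 share was 44.9% on counts. On counts the log2 ratio of Homer1 over Homer2 changed sign, to -0.064. Short coding transcripts held 0% of Homer1 with short set at under 1/2 of the longest coding sequence, 55.2% by FASTQ-based TPM and 41.7% on counts. Leaving out either library gave 61.61% to 61.66% for Dlg4, 58.1% to 58.3% for Shank1, 46.1% to 49.5% for Homer1 and 42.9% to 43.8% for its short transcripts. Beyond these values, 71 values of single genes and transcripts moved by 1 SD or more, and the cause was not tested. In addition 1 was reversed, the ratio of Homer1 over Homer2 above, and 1 was no longer called, Dlg4 under total counts. A further 229 counted as unchanged, but that number does not measure stability. Values with 1 library left out lie within 1 SD of the mean by construction. Log2 ratios between the libraries were compared only by whether they were called. No paired analysis was possible because there was 1 group, so no groups shared replicate numbers, and with 1 library left a difference between libraries cannot be had.

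Depth limits Homer3 most among the genes, at 768 and 763 counts. The 2 libraries give an SD with 1 degree of freedom, which also takes in whatever differs along with their sex-linked genes. Short annotated fragments and nested coding sequences limit the transcript shares, as the routes show for Dlg4, Shank3 and Homer1. The 2 parental alleles were not told apart here.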
